A study of Mus musculus with 10 samples.

Results

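The genes described here encode the inhibitors of cyclin-dependent kinases (CDKs) and the retinoblastoma family of pocket proteins, taken from the deposited table by their symbols. They were 10 genes, of which 3 belong to the Cip/Kip family of inhibitors (Cdkn1a, Cdkn1b, Cdkn1c), 4 to the INK4 family (Cdkn2a, Cdkn2b, Cdkn2c, Cdkn2d) and 3 to the retinoblastoma family (Rb1, Rbl1, Rbl2). Their symbols stood on 15 of the 25152 entries of the deposited table, which holds 20045 gene symbols, and every member was found. The 5 genes Cdkn1a, Cdkn1c, Cdkn2a, Cdkn2d and Rbl1 had 2 entries each. H3K4me2, a mark of active and poised promoters, and H3K27me3, the mark that Polycomb group proteins place on repressed promoters, were measured by ChIP-Seq in whole mouse retina before birth at E17.5 and after birth at PN1, PN7 and PN15 (embryonic and postnatal days), from a single library per mark and age. Of the 10 samples of the series 8 were used, and the H3K4me2 library of rd1/rd1 retina at PN30 and the anti-GFP library at PN56 were not analysed here. The labels write the first stage as E17 and name the strain Pde6b (rd1/rd1) on every sample, whereas the methods of the study name C57BL/6j and rd1/rd1 mice, the latter as a control lacking rods, and its text speaks of wild type retina. The 4 stages were taken as wild type on that ground. The labels give at least 20 retinas for each stage. No genotype or treatment separates the 4 stages, and age is the variable that was compared.

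Cells pass from G1 into S phase when CDKs bound to cyclins phosphorylate the retinoblastoma proteins, which then release E2F transcription factors. The INK4 proteins bind CDK4 and CDK6 and keep them from D-type cyclins, and the Cip/Kip proteins bind cyclin-CDK complexes, including those of CDK2. In the retina progenitors leave the cell cycle in an order that spans the embryonic and the first postnatal weeks, the inhibitor p27Kip1 (Cdkn1b) and Rb1 are known to act in this exit, and rods, the most numerous cells of the mature tissue, are postmitotic.

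Promoter sequences are shown for genes at both ends of the H3K27me3 range, so that the CpG content that Polycomb-marked promoters often have can be seen beside the values. Each line gives the 250 bases before a transcription start site (TSS) of the GENCODE annotation of mm9, the build of the deposited data, from 5′ to 3′ on the strand of the gene, with every CG dinucleotide in capitals. Cdkn2a has a downstream start, for p16Ink4a, and a start 12461 bp upstream, for p19Arf, and both are given (chr4:88928097-88928346 and chr4:88940558-88940807). Cdkn2b, for p15Ink4b, starts 16384 bp beyond the p19Arf start on the same strand (chr4:88956942-88957191). Cdkn2c, for p18Ink4c (chr4:109339795-109340044), Cdkn1b (chr6:134870169-134870418) and Rb1 (chr14:73725630-73725879) follow.
Cdkn2a, downstream start: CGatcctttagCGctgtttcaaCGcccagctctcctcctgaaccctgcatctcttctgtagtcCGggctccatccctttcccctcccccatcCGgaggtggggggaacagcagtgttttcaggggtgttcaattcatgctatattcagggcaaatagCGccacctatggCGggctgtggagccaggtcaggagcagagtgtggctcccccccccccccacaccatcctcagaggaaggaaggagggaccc
Cdkn2a, upstream start: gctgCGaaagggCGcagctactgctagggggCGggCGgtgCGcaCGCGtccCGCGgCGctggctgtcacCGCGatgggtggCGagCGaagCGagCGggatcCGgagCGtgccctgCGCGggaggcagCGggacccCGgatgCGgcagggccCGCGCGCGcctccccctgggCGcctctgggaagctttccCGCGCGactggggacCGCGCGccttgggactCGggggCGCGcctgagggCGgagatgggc
Cdkn2b: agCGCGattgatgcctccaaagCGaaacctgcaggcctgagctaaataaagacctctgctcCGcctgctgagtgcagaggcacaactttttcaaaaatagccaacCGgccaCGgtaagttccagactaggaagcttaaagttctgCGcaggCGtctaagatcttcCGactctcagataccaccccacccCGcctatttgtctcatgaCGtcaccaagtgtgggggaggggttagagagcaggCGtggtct
Cdkn2c, upstream start: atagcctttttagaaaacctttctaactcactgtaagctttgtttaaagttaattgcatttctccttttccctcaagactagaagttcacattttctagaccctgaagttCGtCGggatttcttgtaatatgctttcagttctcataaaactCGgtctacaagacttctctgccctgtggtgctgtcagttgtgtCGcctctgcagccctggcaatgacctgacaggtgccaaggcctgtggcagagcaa
Cdkn1b: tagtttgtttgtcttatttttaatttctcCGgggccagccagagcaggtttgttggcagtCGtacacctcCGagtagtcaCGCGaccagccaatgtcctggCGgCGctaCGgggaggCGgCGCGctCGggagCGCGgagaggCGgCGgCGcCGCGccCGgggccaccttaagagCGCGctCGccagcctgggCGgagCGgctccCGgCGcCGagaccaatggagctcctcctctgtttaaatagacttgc
Rb1: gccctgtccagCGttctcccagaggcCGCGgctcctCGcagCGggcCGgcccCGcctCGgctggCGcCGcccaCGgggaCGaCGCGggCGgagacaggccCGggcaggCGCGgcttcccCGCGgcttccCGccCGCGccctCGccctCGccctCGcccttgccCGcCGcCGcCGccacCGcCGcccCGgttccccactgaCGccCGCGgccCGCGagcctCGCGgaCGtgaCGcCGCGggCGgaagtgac

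The CG dinucleotides numbered 7 before the p16Ink4a start, 38 before the p19Arf start, 12 before Cdkn2b, 4 before the upstream start of Cdkn2c, 28 before Cdkn1b and 45 before Rb1. Over 22220 annotated promoters of the same length the median was 9. In these 250 bases the p19Arf start was at percentile 98 of all promoters and the upstream start of Cdkn2c at percentile 33.2. Within 2.5 kb on both sides, the width in which the marks were measured, Cdkn2c held 185 CG dinucleotides, Cdkn2b 113 and the p19Arf start 209. In the same width the p16Ink4a start held 73, Cdkn1b 193 and Rb1 225. In the 250 bases Rb1 was at percentile 99.5. Among the promoters that are not printed, Cdkn1c held 32 CG dinucleotides, Rbl1 24, Cdkn2d 16, Rbl2 10, the downstream start of Cdkn2c 6, a further start of Cdkn2a 40, and the 3 annotated starts of Cdkn1a held 2, 19 and 8. The letters TTTNNCGC, a form of the E2F motif searched on both strands, were present in 4 of the 15 promoters of the members, namely in the 3 annotated starts of Cdkn2a and in Rbl1, and in 5.03% of all promoters. The promoters of the upstream pair of Cdkn2a starts share most of their bases, so their matches are not independent. A match of these letters is a description of the sequence and not a binding site.

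The deposited value of an entry is its normalized occupancy, the ChIP-Seq reads within 2.5 kb of a RefSeq TSS relative to the mapped reads of the library, as a whole number. All windows have the same width, so levels were set side by side between genes of a library. Reads with several positions had been dropped, and 95% of the 32-base stretches around the annotated Cdkn2d start recur in the genome. The part of this in the levels of Cdkn2d was not tested, also where it is ranked or called unmarked. For the background in each library the 1053 entries of olfactory receptor genes, which are silent in retina, were used, and a gene was called marked when its value was above their 99th percentile. This limit was 6, 9, 1 and 9.48 for H3K4me2 and 33.5, 44, 40.5 and 41.5 for H3K27me3 from the youngest to the oldest stage, the order kept in all series of 4 values. The read depth is not given in the sources used here. Values and ratios therefore carry exact Poisson and exact binomial 95% intervals that take 1 read for a unit. Each column uses every whole number up to a first gap at 110 to 347, so a read was worth no more than about 1 unit, and these intervals are if anything too wide for counting error and cover counting error only. With 1 library for each stage and mark there was no replicate error and no test between stages. In whole tissue fewer cells of a type and less mark in each cell cannot be told apart.

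The libraries differed in ways that touch several values given here. In H3K4me2 at PN7, 19.5% of the entries were listed at 0, whereas the other stages had 0.362% to 2.52%, and its limit of silent genes was the lowest. From PN1 to PN7 the median log2 change of H3K4me2 over all symbols was -0.50, from PN7 to PN15 it was 1, and from E17.5 to PN1 it was -0.42, so changes called centred are given after subtraction of the median over all symbols, on the log2(value + 1) scale. Ratios with intervals compare the deposited values and still hold that shift. For H3K27me3 the median shift was between -0.16 and 0. The 5 rod markers Nrl, Sag, Gnat1, Pde6b and Crx summed to an H3K4me2 occupancy of 85, 93, 90 and 527, and the 3 progenitor markers Pax6, Rax and Six3 summed to 358, 236, 258 and 250. All 3 progenitor markers were above the H3K4me2 limit at each stage, and single rod markers had 9 to 35 in the E17.5 library and 53 to 158 in the PN15 library. In H3K27me3 the same rod markers summed to 106, 102, 79 and 52 and the progenitor markers to 24, 70, 172 and 253. In H3K4me2 blood vessel markers (Cdh5, Pecam1, Tek) summed to 27, 29, 7 and 9 and the erythrocyte markers (Hbb-b1, Hba-a1) to 6, 11, 0 and 8, with no erythrocyte marker above the H3K4me2 limit. Pigment epithelium markers (Rpe65, Tyr, Pmel) summed in H3K4me2 to 58, 40, 44 and 52, of which a single marker was above the limit. Of tissues that should be absent, liver markers (Alb, Ttr) summed to 20, 19, 2 and 5 and skeletal muscle markers (Myod1, Myog) to 28, 21, 17 and 26 in H3K4me2. Of the 2 muscle markers 2, 1, 2 and 2 were above the H3K4me2 limit, and 1 of the 2 liver markers was above it at E17.5 and at PN1, so a value above the limit does not by itself show a gene in use. The part of this changing cell composition in the values of the members was not tested.

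H3K4me2 lay above the limit of silent genes at 10 of 10 members at E17.5, where 72.6% of all symbols did, at 9 in the PN1 library (69% of symbols), at 9 in that of PN7 (72.1%) and at 10 in that of PN15 (68.3%). The exceptions were Cdkn2a at PN1, with 7 against a limit of 9, and Cdkn2d at PN7, which was listed at 0. The other entry of Cdkn2a had 35 at PN1. H3K27me3 lay above its limit at 5 members at E17.5 and 5 at PN1 (17.1% and 15.4% of symbols) and at 3 at PN7 and 3 at PN15 (15.9% and 13.8%). Cdkn1a, Cdkn2a and Cdkn2b were marked at all 4 stages, and Cdkn1c and Cdkn2c were marked at E17.5 and PN1 and not at PN7 or PN15. For Cdkn1a this holds for the entry with the larger sum, and its other entry was above the H3K27me3 limit at PN1 alone. Cdkn1b, Cdkn2d and the 3 genes of the retinoblastoma family were below the H3K27me3 limit at every stage. Both marks were above their limits at 5 members at E17.5 (15.6% of symbols), 4 at PN1 (13.1%), 3 at PN7 (14.6%) and the 3 of PN15 (10.9%). The median of the members was 59, 48, 45 and 56.5 for H3K4me2, beside 41, 27, 24 and 42 over all symbols. For H3K27me3 it was 30, 32.5, 14 and 10, beside 11, 10, 9 and 10 over all symbols.

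**Figure D1:**
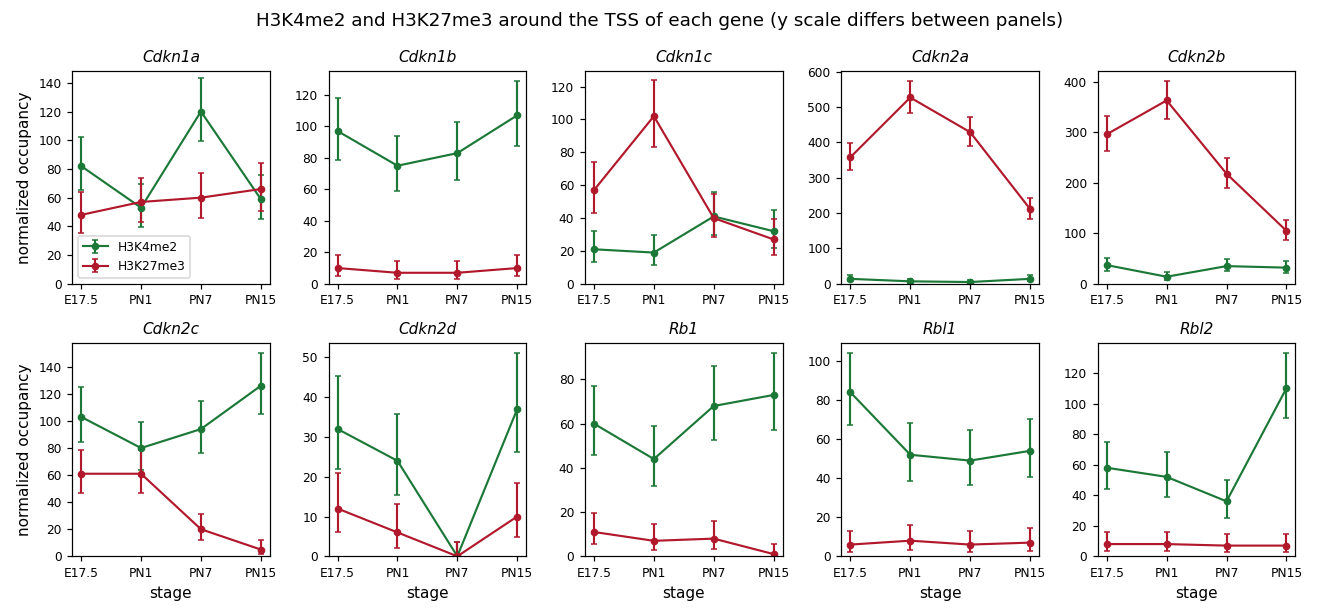
Normalized occupancy (y axis, whose scale differs between panels) of H3K4me2 in green and H3K27me3 in red at the 4 stages (x axis) for each of the 10 genes, with 1 library a point and exact Poisson 95% intervals for counting error as bars. Cdkn2a and Cdkn2b carry H3K27me3 of 105 to 527 with their highest deposited values at PN1, which for Cdkn2a does not hold with quantile normalization or with libraries scaled to the same sum, Cdkn2c goes from 61 to 5, and the values of Cdkn2d touch 0 at PN7.

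Cdkn2a had the most H3K27me3 of the members in every library. Its entry with the larger sum held 358 (95% interval 322 to 397), 527, 429 and 212, and these values lay at percentiles 98.1, 98.7, 99.1 and 99.1 of all symbols. H3K4me2 at the same entry was 14, 7, 5 and 14. This entry was therefore near the top of all symbols in H3K27me3 at each stage, with H3K4me2 at percentiles 24.2 to 35. In the deposited values H3K27me3 was highest at PN1, with a ratio of PN1 to E17.5 of 1.47 (1.28 to 1.69), and lowest at PN15, with a ratio of PN15 to PN7 of 0.494 (0.417 to 0.584). From E17.5 to PN15 the ratio was 0.592 (0.497 to 0.704), a log2 change of -0.75 after centring. The highest and lowest stage depend on the scaling, since the change from PN1 to PN7, -0.14 after centring, was 0.01 with libraries scaled to the same sum and 0.19 with quantile normalization, and that from PN7 to PN15 was -0.0038 with the latter. The change from E17.5 to PN15 depends on it as well, being -0.22 with libraries scaled to the same sum and 0.45, the other direction, with quantile normalization.

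Cdkn2b, next to Cdkn2a and encoding the inhibitor p15Ink4b, had the second highest H3K27me3 in every library. Its values were 296, 363, 218 and 105. They were highest at PN1 and lowest at PN15, as at Cdkn2a, and the ratio of PN15 to E17.5 was 0.355 (0.281 to 0.445), or -1.49 on the centred log2 scale, which became -0.54 with quantile normalization and -0.96 with libraries scaled to the same sum. H3K4me2 at Cdkn2b was 37, 14, 35 and 32. It was lowest at PN1, and the ratio of PN1 to E17.5 was 0.378 (0.189 to 0.717), or -0.93 after centring, and that of PN7 to PN1 was 2.5 (1.31 to 5.03), or 1.76 after centring. The entry of Cdkn2a with the larger sum was above Cdkn2b in H3K27me3 at all 4 stages, and their intervals did not overlap at PN1, PN7 and PN15. The second entry of Cdkn2a had intervals that overlapped those of Cdkn2b at all 4 stages.

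The table has a second Cdkn2a entry with different values, and the file does not say which start it stands for. Its H3K27me3 was 318, 375, 239 and 114, below the first entry at all 4 stages. H3K4me2 of this entry was 38, 35, 69 and 56, above the limit of silent genes in each library and above the first entry in each. Among all entries these H3K4me2 values lay at percentiles 46.5, 59.8, 92.6 and 58.7, so the level of H3K4me2 at Cdkn2a depends on the entry. The ratio of PN15 to E17.5 was 0.358 (0.287 to 0.445) in H3K27me3 and 1.47 (0.959 to 2.29) in H3K4me2. In proportion the entries differed more in H3K4me2 than in H3K27me3. At PN7 their H3K4me2 values of 5 and 69 were farthest apart.

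Cdkn1a, the p53 target that encodes p21Cip1, also had entries that differed. The entry with the larger sum held H3K4me2 of 82, 53, 120 and 59 and H3K27me3 of 48, 57, 60 and 66. H3K4me2 was highest at PN7, at percentile 98.9 of all symbols, with a ratio of 2.26 (1.63 to 3.19) over PN1 and of 0.492 (0.354 to 0.677) from PN7 to PN15, or 1.66 and -2.01 after centring. H3K27me3 was above the limit at every stage. Of the 3 members marked at PN15, Cdkn1a was the one whose H3K27me3 was not lower than at E17.5 in the deposited values. Its ratio was 1.38 (0.934 to 2.04), with an interval that includes 1. With quantile normalization Cdkn2a was not lower either (0.45). The other entry of Cdkn1a held H3K4me2 of 13, 9, 7 and 2 and H3K27me3 of 32, 49, 36 and 35. Its H3K27me3 was above the limit at PN1 alone, and its H3K4me2 was not above the limit at PN1 or PN15. Its H3K4me2 was highest at E17.5 and lowest at PN15, a ratio of 0.154 (0.0169 to 0.68). The annotation places starts of Cdkn1a at 29227924, 29230717 and 29235152 on chromosome 17, of which the first pair is 2793 bp apart, so windows around them share sequence.

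**Figure D2:**
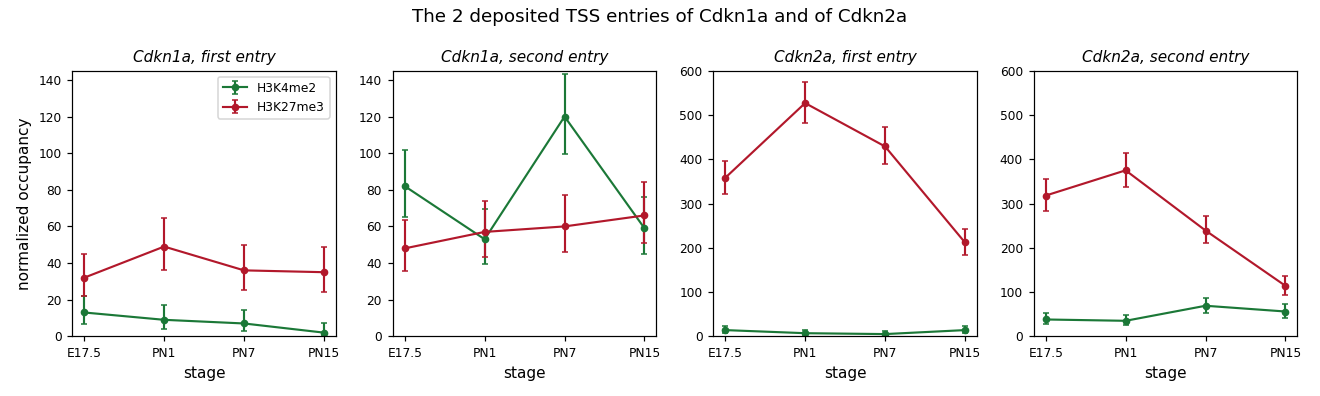
Normalized occupancy (y axis) of H3K4me2 in green and H3K27me3 in red by stage (x axis) for both deposited entries of Cdkn1a and of Cdkn2a, 1 library a point, bars exact Poisson 95% intervals for counting error. The entries of Cdkn1a differ in H3K4me2, 120 against 7 at PN7, and the entries of Cdkn2a carry H3K27me3 of 114 to 527.

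Cdkn2c, which encodes p18Ink4c, had the largest log2 change from E17.5 to PN15 of any member. Its H3K27me3 was 61 (46.7 to 78.4), 61, 20 and 5. The first 2 values were above the limit and the last 2 were below it. The ratio of PN15 to E17.5 was 0.082 (0.0257 to 0.202), a centred log2 change of -3.37 at percentile 0.122 of all symbols. H3K4me2 was 103, 80, 94 and 126, at percentiles 95.7 to 98.8 in each library. It was the highest or the second highest H3K4me2 of the members at each stage, and the ratio of PN15 to E17.5 was 1.22 (0.935 to 1.6), within counting error. From PN7 to PN15 it was 1.34 (1.02 to 1.77), or -0.58 after centring.

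Cdkn1c, the imprinted gene of p57Kip2, had H3K27me3 of 57, 102, 40 and 27. The value was highest at PN1 (102, 83.2 to 124) and was just below the limit at PN7 (40 against 40.5). From E17.5 to PN1 the ratio was 1.79 (1.28 to 2.52), from PN1 to PN7 0.392 (0.265 to 0.57), and from E17.5 to PN15 0.474 (0.288 to 0.761). H3K4me2 was 21, 19, 41 and 32, with a ratio of PN7 to PN1 of 2.16 (1.22 to 3.94), or 1.57 after centring. The gene lies on the minus strand of chromosome 7 (chr7:150644255-150646955). Its second entry held identical values.

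Cdkn1b, the p27Kip1 gene, had H3K4me2 of 97, 75, 83 and 107 and H3K27me3 of 10, 7, 7 and 10. H3K4me2 was among the 3 highest of the members in each library and lay at percentiles 90.7 to 97.9 of all symbols. H3K27me3 was below the limit of silent genes at each stage. From E17.5 to PN15 the H3K4me2 ratio was 1.1 (0.83 to 1.47), within counting error.

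Rb1, the retinoblastoma tumour suppressor gene, had H3K4me2 of 60, 44, 68 and 73 and H3K27me3 of 11, 7, 8 and 1. The H3K4me2 ratio of PN15 to E17.5 was 1.22 (0.853 to 1.74). H3K27me3 was below the limit of silent genes at each stage, and the value of 1 at PN15 lay at percentile 0.237 of all symbols. The H3K27me3 ratio of 0.0909 (0.00211 to 0.625) was taken between 2 values under that limit, so it is a change within the background range.

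Rbl1, which encodes p107, had H3K4me2 of 84, 52, 49 and 54 and H3K27me3 of 6, 8, 6 and 7, and its second entry was identical (chr2:156971629-157030270). H3K4me2 was highest at E17.5, and the ratio of PN15 to E17.5 was 0.643 (0.448 to 0.916), or -0.76 after centring. Rbl2, which encodes p130, the pocket protein of quiescent cells (chr8:93593956-93647743), had H3K4me2 of 58, 52, 36 and 110 and H3K27me3 of 8, 8, 7 and 7. Here H3K4me2 was highest at PN15, with a ratio to E17.5 of 1.9 (1.37 to 2.65), or 0.78 after centring, and a ratio to PN7 of 3.06 (2.08 to 4.58), which was 0.58 after centring, at percentile 75.3 of all symbols. The intervals of Rbl1 and Rbl2 lay on opposite sides of 1, and neither change passed 2-fold after centring. Rbl2 was below Rbl1 at E17.5 (58 and 84) and above it at PN15 (110 and 54).

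Cdkn2d, for p19Ink4d, had H3K4me2 of 32, 24, 0 and 37 and H3K27me3 of 12, 6, 0 and 10, and its second entry had H3K4me2 of 35, 22, 0 and 40 and H3K27me3 of 10, 6, 1 and 7. Both entries were thus at or near 0 in both libraries of PN7 and not at the other stages, and no fold is given against PN7. Of 14672 entries with H3K4me2 of at least 20 at the other 3 stages, 76 were listed at 0 in H3K4me2 at PN7, and 75 of those had at most 1 in H3K27me3 at PN7 as well. These 75 entries belonged to 42 symbols. In the mm9 sequence within 2.5 kb of the Cdkn2d start (chr9:21093153-21098153), 95% of the 32-base stretches occurred more than once in the genome, against 0% to 6.56% in the windows of the other members. Of the 4202 stretches with a single further copy, 4201 had it at chr9:123834597-123839362. The authors removed reads with several positions, and the part of this copy in the values of Cdkn2d was not tested. From E17.5 to PN15 the H3K4me2 ratio was 1.16 (0.701 to 1.92).

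**Figure D3:**
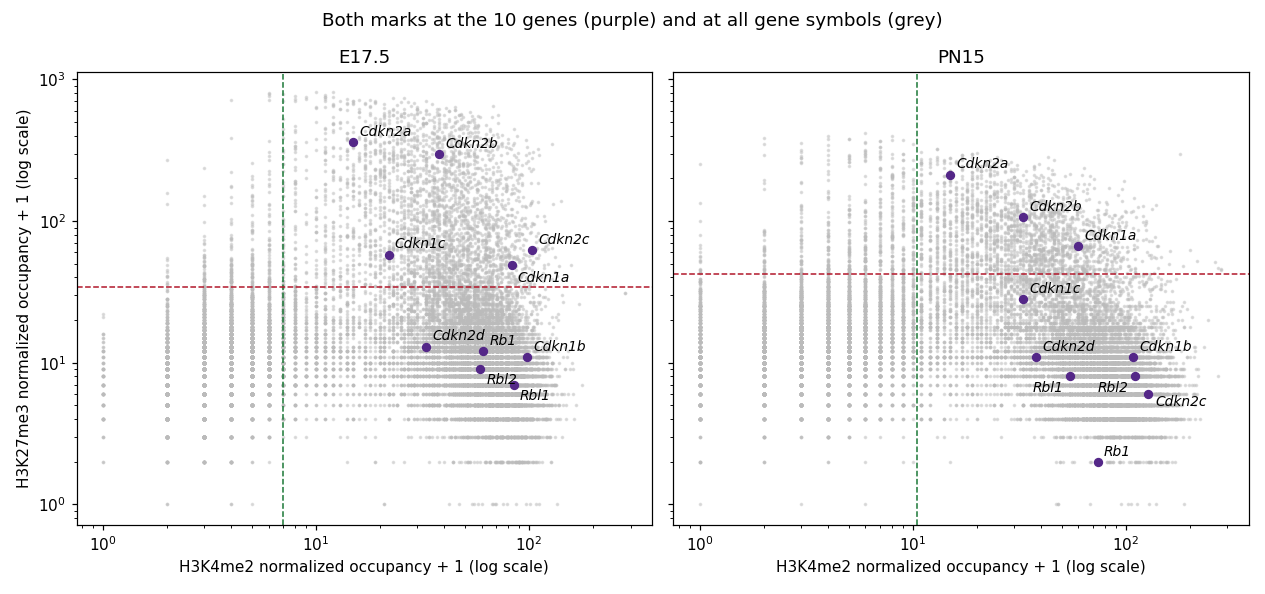
H3K4me2 (x axis) against H3K27me3 (y axis), normalized occupancy + 1 on log scales, at E17.5 and PN15, with all gene symbols in grey, the 10 genes in purple and the limits of silent genes as dashed lines. At E17.5 the 5 members Cdkn1a, Cdkn1c, Cdkn2a, Cdkn2b and Cdkn2c are above both limits, and at PN15 Cdkn1a, Cdkn2a and Cdkn2b are.

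In H3K4me2 the order of the members from high to low at E17.5 was Cdkn2c, Cdkn1b, Rbl1, Cdkn1a, Rb1, Rbl2, Cdkn2b, Cdkn2d, Cdkn1c and Cdkn2a. No neighbours in this order had intervals apart from each other, nor had any at PN1 or PN15. At PN7 the order opened with Cdkn1a (120), Cdkn2c (94) and Cdkn1b (83), and among neighbours Cdkn2b (35) and Cdkn2a (5) alone had intervals that did not overlap. At PN15 it opened with Cdkn2c (126), Rbl2 (110) and Cdkn1b (107), whose intervals overlapped. H3K27me3 had wider steps. At PN1 Cdkn2a (527), Cdkn2b (363), Cdkn1c (102) and Cdkn2c (61) followed each other with intervals that did not overlap, and at PN15 Cdkn2a (212), Cdkn2b (105), Cdkn1a (66) and Cdkn1c (27) did so. Cdkn2a stands in these orders by its entry with the larger sum. In its second entry the H3K27me3 intervals overlapped those of Cdkn2b at each stage, and H3K4me2 at PN7 was 69. Among the 5 members that were never marked with H3K27me3, values ranged from 0 to 12.

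The comparison of consecutive stages asks when in retinal maturation the marks at these genes change. From E17.5 to PN1 no member was past 2-fold after centring in either mark, where 13.7% of all symbols were higher and 1.12% lower in H3K4me2, and 5.74% higher and 8.25% lower in H3K27me3. Among symbols whose mean of both libraries was above the mean limit the shares were 1.13% and 0.725% in H3K4me2 and 0.91% and 0.0628% in H3K27me3, so marked genes as a whole seldom passed. The changes of the members were between -0.93 and 0.83. After centring the last embryonic and the first postnatal stage differed by less than the limit at these genes. H3K4me2 of Cdkn2b passed it without centring (-1.34) and with quantile normalization (-1.04). H3K27me3 of Cdkn2d passed it with libraries scaled to the same sum (-1.05). Within that limit the H3K27me3 intervals of Cdkn2a, Cdkn2b and Cdkn1c were all above 1, with 1.23 (1.05 to 1.43) at Cdkn2b. The centred change of Cdkn2b, 0.29, was near the median of 0.23 over the 3187 marked symbols, and it was 0.05 with quantile normalization and 0.10 with libraries scaled to the same sum.

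From PN1 to PN7, H3K4me2 was past 2-fold higher at 4 members, beside 13.7% of all symbols and 19.1% of the 14265 symbols whose mean of both libraries was above the mean limit. They were Cdkn2b with a centred log2 change of 1.76, Cdkn1a with 1.66, Cdkn1c with 1.57 and Rb1 with 1.12. Rb1 was no longer past the limit without centring (0.62), with quantile normalization (0.53), with libraries scaled to the same sum (0.68) or with a pseudocount of 5 (0.96), and Cdkn1a was at 0.75 with quantile normalization. A single member, Cdkn2d, was lower, being listed at 0 at PN7, beside 26.6% of symbols. From PN7 to PN15, 3 of those 4 were past 2-fold lower, Cdkn1a with -2.01, Cdkn1c with -1.35 and Cdkn2b with -1.13, beside 17.1% of symbols and 17.9% of marked symbols, and Cdkn2d was higher (15.9% of symbols). For Cdkn1c and Cdkn2b this rests on the median shift of 1, since the deposited values had ratios of 0.78 (0.476 to 1.27) and 0.914 (0.548 to 1.52). Neither passed with a pseudocount of 5 (-0.99 and -0.79) or with quantile normalization (-0.98 and -0.78). Cdkn2b also did not pass with libraries scaled to the same sum (-0.88). Without centring Cdkn1a was lower, at -1.01, and Cdkn2d, Rbl2, at 1.58, and Cdkn2a, at 1.32, were higher. From PN7 to PN15 the second entry of Cdkn2a went the other way, with a centred change of -1.30 against 0.32 in the first, and the mean over the entries gave -1.08. From PN1 to PN7 the second entry had 1.46 and the first 0.09. The PN7 library stands between both comparisons, so they are not independent of each other. From E17.5 to PN15, which leaves PN7 out, no member was past 2-fold in H3K4me2, against 5.17% of symbols higher and 12.8% lower. With the entry of the smaller sum in its place, Cdkn1a was lower (-2.36). With symbols listed at 0 left out, 3 members in place of 5 were past 2-fold from PN1 to PN7 and 2 in place of 4 from PN7 to PN15. The median change of the members was 0.69 from PN1 to PN7, -0.75 from PN7 to PN15 and 0.04 from E17.5 to PN15. Over the marked symbols it was 0.36, -0.18 and 0.05.

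In H3K27me3 no member was past 2-fold higher from PN1 to PN7 (8.44% of symbols) and 3 were lower (9.33%), Cdkn2c with -1.40, Cdkn1c with -1.17 and Cdkn2d, listed at 0. From PN7 to PN15, 4 members were lower, beside 9.67% of symbols, namely Rb1 with -2.17, Cdkn2c with -1.81, Cdkn2b with -1.05 and Cdkn2a with -1.01, and Cdkn2d was higher (15%). Of the 2997 marked symbols 26.4% were lower, with a median of -0.68. Cdkn2b and Cdkn2a did not pass with quantile normalization (-0.34 and -0.0038) or with libraries scaled to the same sum (-0.63 and -0.59). From E17.5 to PN15, 4 members were past 2-fold lower, Cdkn2c, Rb1 with -2.58, Cdkn2b and Cdkn1c with -1.05, and none was higher, beside 16.1% of symbols lower and 12.1% higher. Of these, Cdkn2b, Cdkn1c and Cdkn2c had been marked at E17.5. Among the 3172 symbols whose mean of both libraries was above the mean limit, the median change was -0.76 and 39.5% were past 2-fold lower against 7.79% higher. Cdkn1a, Cdkn1c, Cdkn2a and Cdkn2b were among these symbols, with changes of 0.45, -1.05, -0.75 and -1.49. In the entry with the larger sum the change at Cdkn2a was thus near the median of the marked symbols. Its second entry had -1.47 and the mean over its entries gave -1.05, both past 2-fold lower. Cdkn2c was not among the marked symbols, because its mean was below the mean limit. With libraries scaled to the same sum in place of centring, 2 members were past 2-fold from E17.5 to PN15, and Cdkn1c (-0.53) and Cdkn2b (-0.96) were not.

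**Figure D4:**
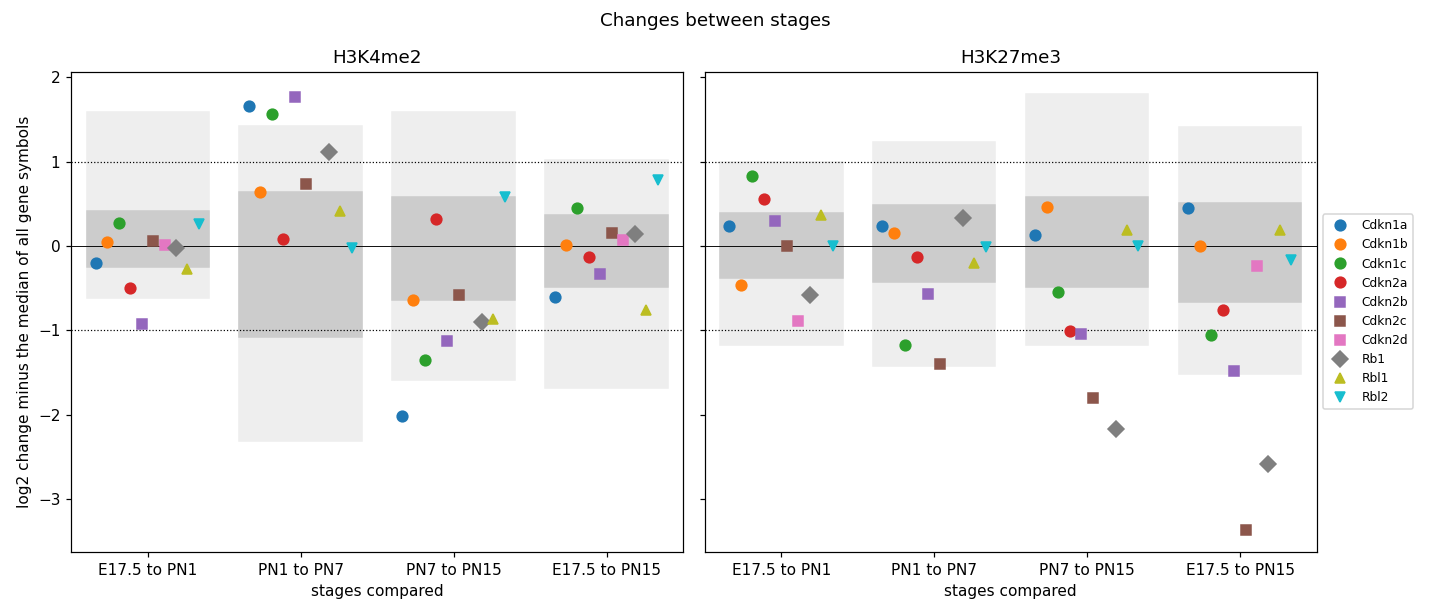
Centred log2 change of normalized occupancy (y axis) between the stages named on the x axis for each of the 10 genes, H3K4me2 on the left and H3K27me3 on the right, with the middle 50% of all symbols in dark grey, the range from percentile 5 to 95 in light grey and 2-fold as dotted lines. Cdkn2d is not drawn where PN7 is compared, because it was listed at 0 there. Cdkn2c and Rb1 lie below the light band in H3K27me3 from E17.5 to PN15, at -3.37 and -2.58.

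By the profile over the 8 libraries, measured as the Euclidean distance of log2(value + 1), the members nearest to each other were Rbl1 and Rbl2 (1.29), followed by Cdkn1b with each of these (1.59 and 1.59). The neighbours Cdkn2a and Cdkn2b were 3.59 apart. Among all symbols, the 3 nearest to Cdkn2a were Bhlhe23 (0.877), Nphs1 (0.982) and Galr1 (0.988), those nearest to Cdkn2b were Cpne7 (0.4), Tesc (0.565) and Lif (0.708), and those nearest to Cdkn1a were Stc2 (0.583), Foxp2 (0.805) and Htr1b (0.816). Cpne7, for example, had H3K27me3 of 295, 357, 251 and 107 beside 296, 363, 218 and 105 at Cdkn2b. Stc2 had H3K4me2 of 99, 57, 114 and 75 beside 82, 53, 120 and 59 at Cdkn1a.

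Partners of these proteins were described by a list of 35 genes of CDKs, cyclins, E2F and DREAM subunits, p27 turnover and regulators of Cdkn2a, all of which were found. All 35 were above the H3K4me2 limit at each stage, beside 72.6%, 69%, 72.1% and 68.3% of all symbols. H3K27me3 was above its limit at 7, 7, 6 and 5 of them, near the shares of 17.1%, 15.4%, 15.9% and 13.8% of all symbols, namely at Cdk6, Ccnd1, Ccnd2, Ccna1, E2f8 and the Polycomb genes Bmi1 and Cbx7, of which Cdk6 was below it at PN7 and Bmi1 and Cbx7 at PN15. Ccnd2, which encodes cyclin D2, had the most, 322, 603, 519 and 271, highest at PN1 in the deposited values, together with H3K4me2 of 109, 58, 88 and 45. Ccnd1, for cyclin D1, had H3K27me3 of 71, 134, 222 and 126, highest at PN7. Cbx7, for a Polycomb protein that represses Cdkn2a, had 127, 194, 114 and 28.

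From PN1 to PN7, H3K4me2 was past 2-fold higher at 10 of the 35 genes, beside 13.7% of all symbols and 19.1% of marked symbols. It was lower at none, beside 26.6% of all symbols. The median change was 0.50, beside 0.36 over marked symbols. From PN7 to PN15 H3K4me2 was higher at none, beside 15.9% of all symbols. It was lower at 5 (Cdk1, Ccnd1, Ccnd2, Ccne1, E2f3), beside 17.1%. The median was -0.25, beside -0.18 over marked symbols. From E17.5 to PN15 H3K4me2 was higher at E2f3 (5.17% of all symbols) and lower at Ccnd2 (12.8%), with a median of 0.06. E2f3, an E2F activator, had H3K4me2 of 65, 44, 169 and 168, and Cdk1, the mitotic kinase, had 69, 30, 49 and 39. H3K27me3 from E17.5 to PN15 was past 2-fold lower at 6 of the 35 (Cdk4, Ccne2, Lin52, Bmi1, Cbx7 and Cks1b, the last listed at 0 at PN15) and higher at Ccnb1 and E2f7, beside 16.1% and 12.1% of all symbols. Of these 8 genes, Bmi1 and Cbx7 were marked at E17.5 and the others were below the limit at every stage.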

How the data were processed

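ChIP-Seq reads of H3K4me2 and H3K27me3 from mouse retina at 4 stages were mapped by the authors to mm9 with Bowtie 0.12.4, multiply placed reads were dropped, and the midpoints of reads, for an assumed fragment of 190 bp, were added up within 2.5 kb of RefSeq starts. The authors then scaled each sum to the mapped reads of its library and rounded it, and this score was deposited. A count model was not applied, because rounded scores are not reads. The 8 columns were matched to samples by stage and mark, and that of H3K27me3 at PN7 has a b added to its name. The labels give the same pair of catalogue numbers for the antibodies against both marks, in opposite order.

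Entries were assigned to a gene by symbol, without regard to case and without a trailing number. A gene was represented by its entry of largest total over the 8 libraries. Changes are log2 ratios with a pseudocount of 1 minus their median over 20045 symbols, and a centred change of at least 1 in size was counted as past 2-fold. Marked genes were those above the 99th percentile of olfactory receptor entries. Intervals were exact Poisson (values) and exact binomial (ratios) at 95%. Scripts were tested on simulated data and run with Python 3.11.15, numpy 2.4.6, pandas 2.3.3, scipy 1.17.1 and matplotlib 3.10.9. Sequences and positions came from the mm9 genome with the GENCODE annotation of that build, and the annotated starts need not be the RefSeq starts of the authors.

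The members and the lists of partners and cell type markers were chosen with earlier results of these data known, and 2 of the cell type markers are not reported here. Named by rule were all 10 members, the 3 symbols nearest to each of the 3 members with the most H3K27me3, and, of the partners, the 3 with the most H3K27me3 and the 3 with the largest H3K4me2 change from E17.5 to PN15. Other partners were given by counts, in part with the symbols of the genes counted. Alternatives were other pseudocounts, scalings, filters, limits, and ways to join the entries of a gene.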

Additional observations from a re-analysis of the deposited data

How the results depend on the processing

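No paired analysis was possible because each stage and mark had 1 library, so no replicate could be left out either. No member change that was past 2-fold after centring turned its direction under the alternatives run for it, which left out the changes of Cdkn2d against PN7 and those of the partner genes. Smaller ones did, among them H3K27me3 of Cdkn2a from E17.5 to PN15 (-1.05 with the mean over entries and 0.45 with quantile normalization) and H3K4me2 of Cdkn2a from PN7 to PN15 (-1.08 with that mean and 1.32 without centring). A count that stayed need not hold the same members. Of 72 counts of members past 2-fold 57 stayed within 1.5 times, of 40 counts of marked members 36 did, and of 380 changes of single members 348 stayed within counting error. The counts that moved were these. For H3K4me2 from E17.5 to PN1 (0 members) 1 member passed with no centring, 1 with quantile normalization and 1 at a 1.5-fold limit. For PN1 to PN7 (5) 3 passed with symbols listed at 0 left out. For PN7 to PN15 (4) 2 passed with a pseudocount of 5, 2 with quantile normalization, 2 with symbols at 0 left out, and 7 at a 1.5-fold limit. For E17.5 to PN15 (0) 3 passed at a 1.5-fold limit and 1 with the entry of the smallest sum. For H3K27me3 from E17.5 to PN1 (0) 1 passed with libraries scaled to the same sum and 2 at a 1.5-fold limit. For PN7 to PN15 (5) 3 passed with quantile normalization and 3 with the same sum. For E17.5 to PN15 (4) 2 passed with the same sum. Above the median of all symbols in place of silent genes lay 6 members for H3K4me2 at E17.5 and at PN15 (10 with the limit), and 5 for H3K27me3 at PN7 (3), as with a limit at 2 times the median of olfactory receptors. The settings without symbols at 0 and with the entry of the smallest sum were chosen after seeing the data. Pearson correlation in place of distance kept 2 of the 9 nearest genes. The causes of these differences were not tested, except that a lower limit of fold passes more members by construction. Depth limits the low values: H3K27me3 of the members without the mark was at most 12, where counting error spans several units.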
